A study of Mus musculus with 6 samples.

Results

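The 35 genes described here carry fatty acids from the blood to the end of beta-oxidation in heart muscle, together with genes that hold fatty acids in lipid droplets and release them. They were chosen by symbol from a fixed list, and all 35 were found among the 34945 symbols of the count table. Transcripts were measured by RNA sequencing of left ventricles from 3 mice with the 4SA-Rad knock-in genotype and 3 wild-type mice, all labelled C57BL/6N. Rad, encoded by Rrad, is a small GTP-binding protein that restrains voltage-gated calcium channels, and in the knock-in allele serines that are phosphorylated during adrenergic stimulation are replaced by alanine. The title of the series places the comparison in the study of the fight-or-flight response of the heart. The sources used here give neither age nor sex, and do not say whether the controls were littermates.

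Fatty acids are the main fuel of the adult heart. Lipoprotein lipase frees them from circulating triglyceride at the capillary wall, CD36 and transport proteins bring them into the muscle cell, and acyl-CoA synthetases activate them with coenzyme A. The carnitine shuttle then moves long-chain acyl groups into mitochondria, where each round of beta-oxidation shortens the chain through a dehydrogenase, a hydratase, a second dehydrogenase and a thiolase. Fatty acids that are not burned at once are kept as triglyceride in lipid droplets, and many of these genes are targets of the nuclear receptor PPAR alpha.

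The libraries held 35259459 to 39627397 estimated counts in knock-in mice and 24761124 to 32669182 in wild-type mice, and transcripts of the mitochondrial genome took 53.5% to 56.9% of the counts in knock-in and 53.1% to 55.8% in wild-type libraries. Levels are given as CPM, counts scaled to a common library total with TMM, a method that corrects library sizes for composition (normalised CPM). Rrad itself was read at 27.0, 56.8 and 42.3 CPM in knock-in mice and 44.7, 30.0 and 32.2 CPM in wild-type mice, which does not check the genotype labels because total counts do not distinguish the alleles. Heart muscle markers were abundant and none of 10 was called, with summed levels of 45565.5 to 46934.3 CPM in knock-in and 44463.3 to 46737.4 CPM in wild-type ventricles. None of 6 fibroblast, 6 erythroid or 5 tested atrial markers was called either, although summed erythroid markers ranged from 601.7 to 5299.6 CPM in knock-in and from 584.7 to 2225.8 CPM in wild-type mice. Nnt, a mitochondrial transhydrogenase gene partly deleted in the C57BL/6J substrain, was at 595.6, 729.6 and 716.1 CPM in knock-in mice and at 281.6, 271.7 and 261.7 CPM in wild-type mice. Wdfy1 and Entpd4, which also differ between C57BL/6 substrains, differed in the same comparison (log2 fold change 1.49 ± 0.08 and -1.04 ± 0.07, SE). Substrain and Rad genotype therefore cannot be told apart in any result below.

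Among the 35 fatty acid genes, 8 rose in knock-in ventricles, 2 fell and 25 did not pass the test. A gene is said to rise or fall where edgeR's quasi-likelihood test gave a Benjamini-Hochberg adjusted p below 0.05 over all 13485 genes tested. Of all genes tested, 9.01% were called, 4.00% as higher and 5.01% as lower. The genes that rose were Fabp3 and Slc27a1 of uptake, Cpt1a of the carnitine shuttle, and Acadl, Acadm, Hadha, Ech1 and Decr1 of beta-oxidation. Those that fell were the lipase gene Lpl and the thioesterase gene Acot13. All 10 differences were small, the rises lying between 12.2% and 25.9%. The log2 fold change was above 0 for 28 of the 35 and below 0 for 7, with a median of 0.14, while 50.7% of all genes tested were above 0 and their median was 0.00. Every knock-in mouse was above every wild-type mouse for 17 of the genes and below for 2, against 14.3% and 15.1% of all genes tested.

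The count of called genes depended on scaling and on single libraries. With library size alone as the scale, 1 fatty acid gene was higher and 2 were lower, the median of the 35 was 0.05 and that of all genes was -0.08. With library size alone and the mitochondrial genome left out, an alternative chosen after seeing the data, 6 were higher and 2 lower. Fits with 1 mouse fewer called 7 genes when knock-in replicate 1 was left out, 4 when it was knock-in replicate 2 and 5 when it was knock-in replicate 3. They called 4 genes when wild-type replicate 1 was left out, 9 when it was wild-type replicate 2 and 2 when it was wild-type replicate 3. Cpt1a was called in all 6 of these fits and Ech1 in all 6, whereas Acadl and Acadm were called in none.

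**Figure D1:**
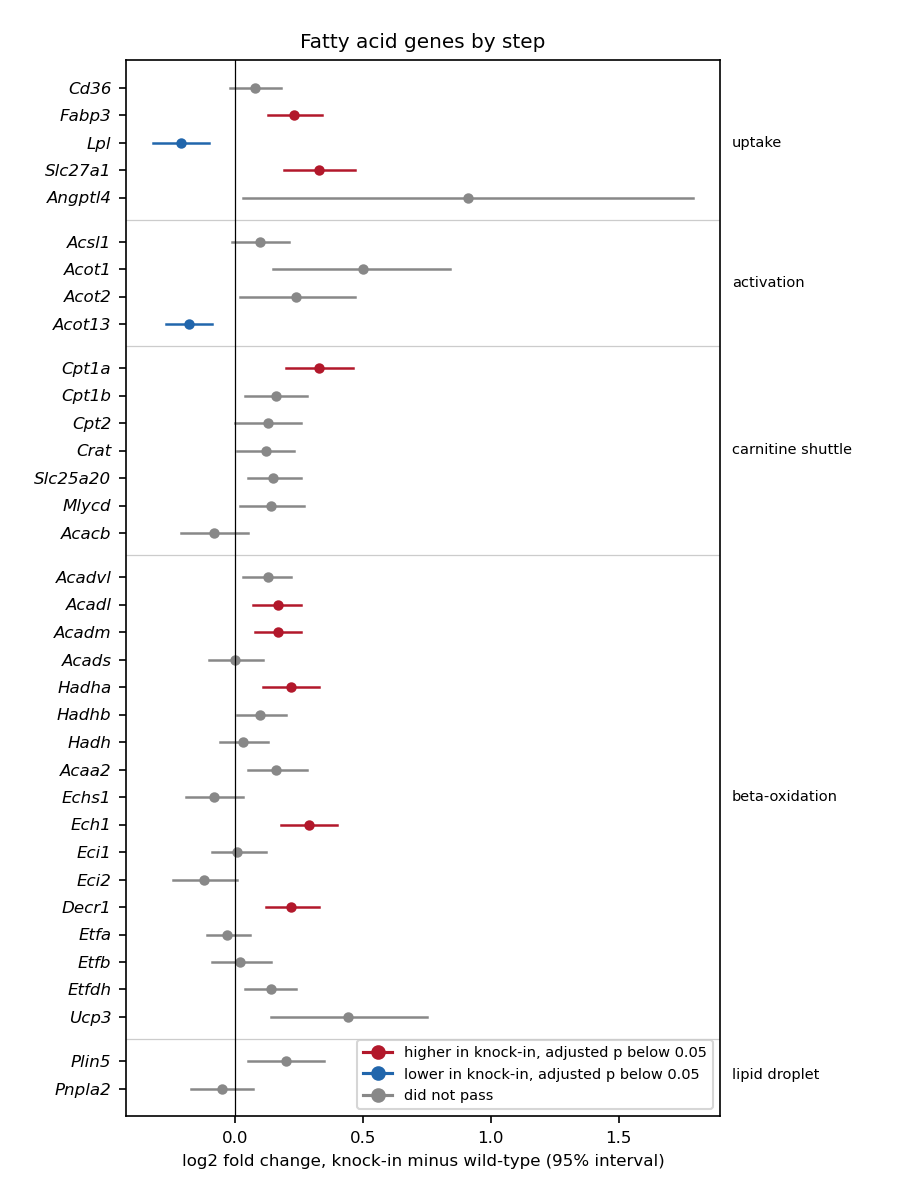
Log2 fold change (x axis, knock-in minus wild-type, with the 95% interval from edgeR) of the 35 genes in the order of the pathway, coloured by whether the adjusted p was below 0.05. 8 genes lie to the right as higher and Lpl and Acot13 to the left as lower, and apart from Angptl4, Acot1 and Ucp3 every estimate lies between -0.21 and 0.33.

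Of the 5 uptake genes, Lpl fell, Slc27a1 and Fabp3 rose, and Angptl4 and Cd36 did not pass. The called share was 60%, against 9.01% of all genes tested. Lpl, the lipase that frees fatty acids from circulating triglyceride, was at 2743.8, 2877 and 2639.9 CPM in knock-in mice and at 3256, 3042 and 3257 CPM in wild-type mice. All 3 knock-in mice were below all 3 wild-type mice, and Lpl fell by 13.5% (log2 fold change -0.21 ± 0.05, SE, edgeR adjusted p = 0.0264). It did not pass without knock-in replicate 3 (edgeR adjusted p = 0.101), wild-type replicate 1 (0.0792) or wild-type replicate 3 (0.0886). Macrophages also make Lpl. Of 8 macrophage markers, 5 fell (Adgre1, Csf1r, C1qa, C1qb and Lyz2), while 5.01% of all genes tested were called as lower. The 8 markers summed to 115.8 to 135.6 CPM in knock-in and 159.1 to 163.6 CPM in wild-type ventricles. The part of macrophages in the Lpl result was not tested, and in bulk tissue fewer cells of a type and less RNA per cell cannot be told apart. Angptl4, a secreted inhibitor of this lipase, was near the lower end of detection at 2.48, 3.89 and 1.09 CPM in knock-in and 1.40, 0.983 and 1.57 CPM in wild-type mice. Its groups overlapped and it did not pass (0.91 ± 0.40, edgeR adjusted p = 0.185), and single mice moved it both ways. The log2 fold change was 0.42 without knock-in replicate 2 (edgeR adjusted p = 0.559) and 1.28 without knock-in replicate 3 (0.048).

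Slc27a1, a fatty acid transport protein of the muscle cell membrane, was at 86.4, 94.2 and 87.6 CPM in knock-in mice and at 70.4, 77.5 and 65.4 CPM in wild-type mice. The groups did not overlap, and Slc27a1 rose by 25.7% (0.33 ± 0.06, edgeR adjusted p = 0.0127). It did not pass without knock-in replicate 3 (edgeR adjusted p = 0.0576) or wild-type replicate 3 (0.0514), nor with library size alone (0.0729). Fabp3, the fatty acid-binding protein that carries fatty acids through the cytosol of heart muscle, was at 2017, 2053 and 1949.9 CPM in knock-in mice and at 1679, 1804 and 1643 CPM in wild-type mice. Again all knock-in mice were above all wild-type mice, a rise of 17.4% (0.23 ± 0.05, edgeR adjusted p = 0.0176). Fabp3 did not pass without knock-in replicate 2 (edgeR adjusted p = 0.0625), wild-type replicate 1 (0.0563) or wild-type replicate 3 (0.0715), nor with library size alone (0.175). Cd36, the main fatty acid translocase of heart muscle and capillary endothelium, did not pass, at 947, 968 and 895.8 CPM in knock-in and 912.4, 866.7 and 883.2 CPM in wild-type mice. Its 95% interval ran from -0.02 to 0.18 on the log2 scale (edgeR adjusted p = 0.331), so a rise of the size of Slc27a1 lay outside it. Within each library, Lpl counts were 2.90, 2.97 and 2.95 times those of Cd36 in knock-in mice and 3.57, 3.51 and 3.69 times in wild-type mice, which is a relative change that the scaling of libraries does not affect.

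Of the genes that activate fatty acids or release them from coenzyme A, 1 of 4 passed, or 25%, against 9.01% of all genes tested. Acsl1, the main long-chain acyl-CoA synthetase of the heart, was at 663.9, 649.3 and 629.8 CPM in knock-in mice and 639.4, 600.7 and 576 CPM in wild-type mice. The groups overlapped and it did not pass (0.10 ± 0.05, edgeR adjusted p = 0.257). Acot13, a thioesterase found at mitochondria that hydrolyses medium- and long-chain acyl-CoA, was at 98.6, 100.5 and 97.6 CPM in knock-in mice and 114.9, 109.3 and 112.2 CPM in wild-type mice. All knock-in mice were below all wild-type mice, and Acot13 fell by 11.8% (-0.18 ± 0.04, edgeR adjusted p = 0.0252). The call rested on the full set of mice, since Acot13 passed without wild-type replicate 2 and did not pass without knock-in replicate 1 (edgeR adjusted p = 0.0509), 2 (0.06) or 3 (0.122) or wild-type replicate 1 (0.0677) or 3 (0.0747). The cytosolic thioesterase gene Acot1 (0.50 ± 0.15, edgeR adjusted p = 0.0747) and its mitochondrial paralogue Acot2 (0.24 ± 0.10, 0.161) did not pass. Acot1 was at 6.88, 7.03 and 5.92 CPM in knock-in mice and 4.25, 5.90 and 3.84 CPM in wild-type mice. The ratio of Acot1 to Acot2 counts was 0.189, 0.166 and 0.191 in knock-in and 0.129, 0.193 and 0.133 in wild-type libraries, which overlap. Over the fits that left out a mouse, edgeR adjusted p for Acot1 ran from 0.0169 (0.71 on the log2 scale, without wild-type replicate 2) to 0.223 (0.36, without wild-type replicate 3), and without a filter on low counts it was 0.0222. These paralogues are hard to separate by reads: of the 31-base words in Acot2 transcripts of GENCODE M21, 29.9% also occur in Acot1 transcripts, and of those in Acot1 transcripts 16.7% also occur in Acot2, so both values are uncertain.

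**Figure D2:**
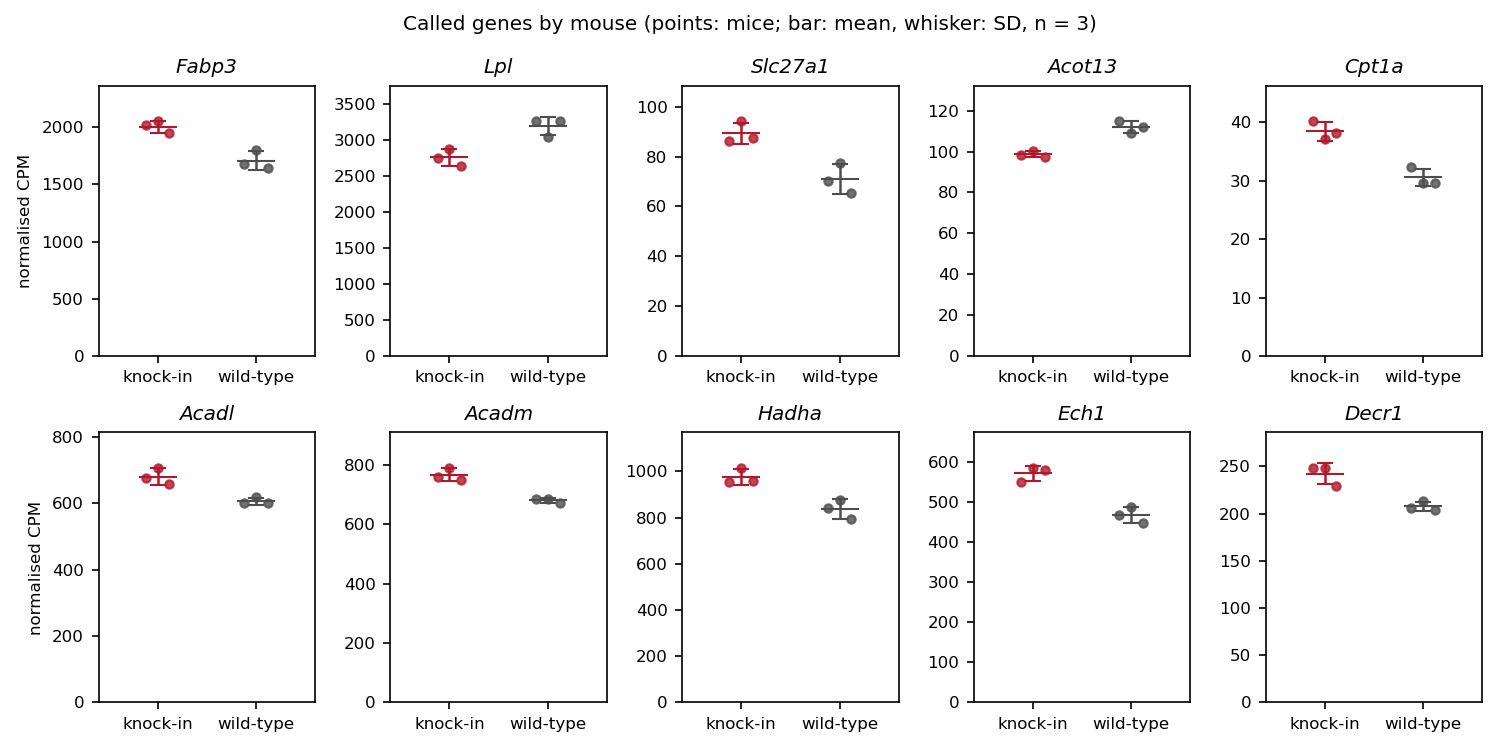
Normalised CPM (y axis, from 0) of the 10 called genes in each mouse, knock-in at the left and wild-type at the right, with points for mice and the mean and SD of 3 mice per genotype. The groups do not overlap in any panel, and only Lpl and Acot13 are lower in knock-in.

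In the carnitine shuttle 1 of 7 genes passed, or 14.3%, against 9.01% of all genes tested. Cpt1a, 1 of the carnitine palmitoyltransferase genes whose products commit long-chain acyl groups to mitochondrial import, was at 40.2, 37.1 and 38.1 CPM in knock-in mice and at 32.3, 29.7 and 29.7 CPM in wild-type mice. All knock-in mice were above all wild-type mice, a rise of 25.9% (0.33 ± 0.06, edgeR adjusted p = 0.00843). Among the 10 called genes, Cpt1a was the only 1 of those that rose to pass under every alternative run, with edgeR adjusted p at most 0.0455. Cpt1b, the muscle isoform and the more abundant of the pair in heart, was at 345.9, 373.6 and 368.8 CPM in knock-in mice and at 339.5, 331.6 and 302.9 CPM in wild-type mice. The groups did not overlap, but the difference of 0.16 ± 0.05 did not pass (edgeR adjusted p = 0.0954), while DESeq2 called it (adjusted p = 0.0387). Per kilobase of transcript, Cpt1a stood at 8.92 CPM in knock-in and 7.09 CPM in wild-type ventricles, and Cpt1b at 125.3 CPM in knock-in and 112.1 CPM in wild-type. The ratio of Cpt1a to Cpt1b counts within a library was 0.116, 0.0993 and 0.103 in knock-in mice and 0.0951, 0.0896 and 0.0982 in wild-type mice, without overlap. Of the 31-base words of Cpt1b, 79.7% also occur in the annotated transcript Gm44502, which was assigned 24 to 89 counts per library against 8713 to 14877 for Cpt1b.

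The other shuttle genes did not pass. Cpt2, which returns acyl groups to coenzyme A inside mitochondria, was at 127.2, 130.5 and 121.3 CPM in knock-in mice and at 123.2, 117.3 and 105.9 CPM in wild-type mice, with overlapping groups (0.13 ± 0.06, edgeR adjusted p = 0.199). Slc25a20, the carnitine-acylcarnitine exchanger of the inner membrane (0.15 ± 0.05, edgeR adjusted p = 0.0722), and Crat, the carnitine acetyltransferase (0.12 ± 0.05, 0.147), had knock-in values all above the wild-type values. The pair that sets malonyl-CoA, an inhibitor of this step, lay on either side of 0. Mlycd, which degrades malonyl-CoA, was at 0.14 ± 0.06 (edgeR adjusted p = 0.146) and Acacb, which makes it at the mitochondrial surface, at -0.08 ± 0.06 (0.419).

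The sequence before the start of Cpt1a is shown because this gene rose in every fit. It is the 250 bases upstream of the RefSeq start on the plus strand of GRCm38.p6 at chr19:3323051-3323300, written 5′ to 3′ with a match to AGGTCA or its reverse TGACCT in capitals. In GENCODE M21 the gene opens farther upstream, at 3322334, so the whole window lies inside the annotated gene, with its last 16 bases in an exon.
Cpt1a: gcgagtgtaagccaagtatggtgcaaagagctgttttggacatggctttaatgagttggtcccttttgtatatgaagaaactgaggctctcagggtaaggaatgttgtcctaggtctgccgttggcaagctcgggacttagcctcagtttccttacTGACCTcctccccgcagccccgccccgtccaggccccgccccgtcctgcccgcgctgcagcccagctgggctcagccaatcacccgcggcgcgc
AGGTCA is the core unit bound by nuclear receptors such as PPAR alpha, and in this window it begins 94 bases upstream of the start on the opposite strand. RefSeq windows of this length were found for 28 of the 35 genes, not for Lpl, Angptl4, Acot13, Cpt1b, Crat, Acaa2 and Decr1. Of the 28, 7 held the unit on either strand (Cd36, Cpt1a, Acadvl, Acadm, Echs1, Ucp3 and Plin5). These were 2 of the 7 genes with a window that rose and 5 of the 21 that did not pass. Of all 32851 windows, 14% hold the unit. That share is by window, whereas the 28 genes have 32 windows and a gene was counted if any of its windows held the unit. None of the 28 held the unit repeated in the same direction after 1 free base, which 0.0335% of all windows hold, nor such a repeat of AGGNCA, where N is any base, which 0.338% hold. None held TCAAGGTCA, which contains the unit itself and which 0.387% hold. Each was searched on both strands. A match is a description of letters, and its absence says only that they are not in this window.

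Beta-oxidation held 5 of the 8 rises, 12 of its 17 genes did not pass and none fell. The called share was 29.4%, against 9.01% of all genes tested. The summed level of the 17 was 6779, 7049 and 6711 CPM in knock-in mice and 6251, 6364 and 6018 CPM in wild-type mice, a mean ± SD of 6846 ± 178.9 in knock-in and 6211 ± 176.6 in wild-type, dominated by the most abundant genes. Ech1, an isomerase of mitochondria and peroxisomes that moves double bonds of unsaturated chains, was at 551.1, 586 and 579.9 CPM in knock-in mice and 468.7, 488.2 and 448 CPM in wild-type mice. All knock-in mice lay well above all wild-type mice, a rise of 22.2% (0.29 ± 0.05, edgeR adjusted p = 0.00695), which did not pass with library size alone (edgeR adjusted p = 0.0846). Decr1, a reductase that acts on unsaturated chains, was at 248.6, 248.4 and 229.1 CPM in knock-in mice and 206.2, 213.1 and 204 CPM in wild-type mice. It rose by 16.5% (0.22 ± 0.05, edgeR adjusted p = 0.02), again without overlap, but did not pass without knock-in replicate 2 (edgeR adjusted p = 0.0674), wild-type replicate 1 (0.0548) or wild-type replicate 3 (0.0747), or with library size alone (0.172). The other genes for unsaturated chains did not pass and included both signs, with Eci1 at 0.01 ± 0.05 (edgeR adjusted p = 0.89) and Eci2 at -0.12 ± 0.06 (0.222).

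The acyl-CoA dehydrogenases take the first step and differ in the chain length they prefer. Acadm, for medium chains, was at 761.3, 791.2 and 748.2 CPM in knock-in mice and 686.9, 685.6 and 672.5 CPM in wild-type mice. It rose by 12.5% (0.17 ± 0.04, edgeR adjusted p = 0.034) with no overlap between genotypes. Acadl, for long chains, was at 677.1, 707.9 and 657.3 CPM in knock-in mice and 600.4, 619.7 and 600.3 CPM in wild-type mice, a rise of 12.2% (0.17 ± 0.04, edgeR adjusted p = 0.0449), also with no overlap. Neither passed in any of the 6 fits that left out a library, where edgeR adjusted p ran from 0.056 (without knock-in replicate 1) to 0.124 (without knock-in replicate 2) for Acadm and from 0.0739 (without knock-in replicate 1) to 0.159 (without knock-in replicate 2) for Acadl. With library size alone the values were 0.396 for Acadm and 0.428 for Acadl, and with the mitochondrial genome left out of that scale 0.0707 and 0.108. Acadvl, for very long chains, was at 473.7, 492.8 and 480.5 CPM in knock-in mice and 443.4, 453.2 and 427.2 CPM in wild-type mice. Its groups did not overlap, and it did not pass (0.13 ± 0.04, edgeR adjusted p = 0.0945), while DESeq2 called it (adjusted p = 0.0436). Of its 31-base words, 33.2% occur, on the opposite strand, in Dvl2, which was assigned 80 to 145 counts per library. Acads, for short chains, was at 88.7, 90.2 and 85.9 CPM in knock-in mice and 93.1, 86.6 and 85.1 CPM in wild-type mice, with a 95% interval of -0.10 to 0.11 (edgeR adjusted p = 0.991). Acadm counts were 8.58, 8.77 and 8.71 times those of Acads in knock-in libraries and 7.38, 7.92 and 7.90 times in wild-type libraries, without overlap. Here, as for Lpl to Cd36, Cpt1a to Cpt1b and Hadha to Hadhb, a called gene is set against 1 that did not pass. The separation of such ratios is therefore not independent of the calls.

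Hadha and Hadhb encode the alpha and beta subunits of the mitochondrial trifunctional protein, which carries out the remaining steps on long chains. Hadha was at 955.3, 1016 and 957.1 CPM in knock-in mice and 839.3, 877.2 and 794.7 CPM in wild-type mice. It rose by 16.6% (0.22 ± 0.05, edgeR adjusted p = 0.0244) without overlap, but did not pass without knock-in replicate 2 (edgeR adjusted p = 0.0866), knock-in replicate 3 (0.0735), wild-type replicate 1 (0.062) or wild-type replicate 3 (0.0886), or with library size alone (0.235). Hadhb was at 1019.6, 1077 and 998 CPM in knock-in mice and 956.1, 978.2 and 942.9 CPM in wild-type mice. Its groups also did not overlap, but the difference of 0.10 ± 0.05 did not pass (edgeR adjusted p = 0.178). The ratio of Hadha to Hadhb counts was 0.937, 0.943 and 0.959 in knock-in libraries and 0.878, 0.897 and 0.843 in wild-type libraries, so each knock-in mouse had relatively more Hadha. Of the 31-base words of Hadhb, 23.7% occur in other annotated genes. Gm13910 holds 19.5% of the words and is absent from the count table. Gm9108 holds 9.57% and was assigned 0 to 2 counts per library.

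Hadha and Hadhb are transcribed away from each other on chromosome 5, with starts 273 bases apart in RefSeq and 86 bases apart in GENCODE M21. The window of Acadm is shown because it holds the nuclear receptor unit, in capitals, beside that of Cpt1a among the genes that rose. It lies at chr3:153944644-153944893 on the minus strand of GRCm38.p6, from RefSeq, outside the GENCODE gene, and is written 5′ to 3′ towards Acadm.
Acadm: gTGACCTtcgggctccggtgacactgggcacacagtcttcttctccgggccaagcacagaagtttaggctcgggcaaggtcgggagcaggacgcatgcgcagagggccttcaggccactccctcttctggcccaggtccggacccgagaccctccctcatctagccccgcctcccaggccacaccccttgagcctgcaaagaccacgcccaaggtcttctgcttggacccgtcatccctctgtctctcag
The unit begins 249 bases upstream of the start on the opposite strand. The upstream windows of Hadha and Ech1 do not hold it, and they overlap GENCODE exons of these genes by 182 and 121 bases.

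The remaining genes of the spiral did not pass. Hadh, the short-chain hydroxyacyl-CoA dehydrogenase, was at 0.03 ± 0.04 (edgeR adjusted p = 0.673) and Echs1, the short-chain hydratase, at -0.08 ± 0.05 (0.361), both with overlapping groups. Acaa2, the mitochondrial thiolase, was at 406.8, 424.2 and 398.5 CPM in knock-in mice and 376, 381.5 and 340.8 CPM in wild-type mice, which did not overlap (0.16 ± 0.05, edgeR adjusted p = 0.0843). It was called by DESeq2 (adjusted p = 0.0282) and with robust dispersions (edgeR adjusted p = 0.0492). Electrons leave the first step through the flavoprotein subunits Etfa (-0.03 ± 0.04, edgeR adjusted p = 0.731) and Etfb (0.02 ± 0.05, 0.843), and then through Etfdh, the oxidoreductase that passes them to ubiquinone (0.14 ± 0.05, 0.0861). Etfdh had all knock-in values above all wild-type values and was called by DESeq2 (adjusted p = 0.0366). Ucp3, a mitochondrial carrier of muscle that is high when fatty acids are burned, was at 36.1, 38.8 and 28.1 CPM in knock-in mice and 30.8, 21.7 and 23.5 CPM in wild-type mice. Wild-type replicate 1 overlapped the knock-in range, and Ucp3 did not pass (0.44 ± 0.14, edgeR adjusted p = 0.0756) except without that mouse (0.0289) or without a filter on low counts (0.00691). Leaving out any of the other mice gave edgeR adjusted p of 0.0609 to 0.22.

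Neither lipid droplet gene of the 35 passed. Plin5, the droplet coat protein of oxidative muscle that links droplets to mitochondria, was at 43.6, 40.0 and 38.4 CPM in knock-in mice and 37.2, 36.5 and 32.7 CPM in wild-type mice. The groups did not overlap, with a difference of 0.20 ± 0.07 (edgeR adjusted p = 0.0973). Pnpla2, the lipase that starts triglyceride breakdown in droplets, was at 153.5, 155.5 and 149.2 CPM in knock-in mice and 170.4, 153 and 151.6 CPM in wild-type mice, with a 95% interval of -0.17 to 0.07 (edgeR adjusted p = 0.599).

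**Figure D3:**
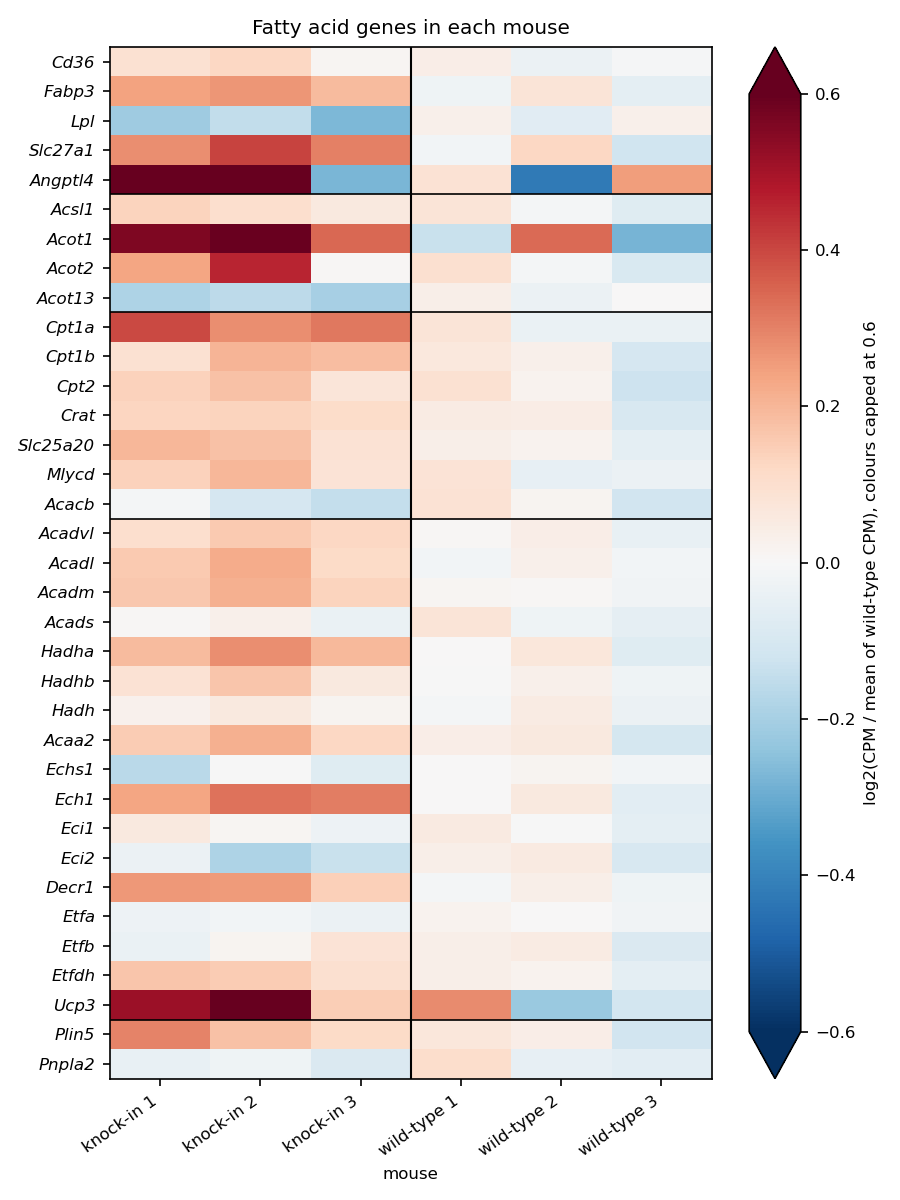
Log2 ratio of each mouse's normalised CPM to the wild-type mean (colour, capped at 0.6) for the 35 genes, with knock-in mice at the left and wild-type mice at the right of the black line. Most rows are red across the knock-in columns, and the palest or bluest column of each genotype is mostly replicate 3.

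The genes varied together between mice of a genotype. Knock-in replicate 2 had the highest knock-in value for 25 of the 35 genes and knock-in replicate 3 the lowest for 26, where 33.7% and 30.2% of all genes tested behaved so. Wild-type replicate 3 had the lowest wild-type value for 28, against 33.1% of all genes, and wild-type replicate 1 the lowest for none. The genes of a library share its scaling factor, so they are not independent of each other. The spread between mice was small, with a median coefficient of variation of 3.94% in knock-in and 4.93% in wild-type mice. Over all genes tested it was 7.36% and 7.70%, but those genes were not matched to the 35 for level. Per kilobase of transcript the most abundant of the 35 were Fabp3, at 2438 CPM in knock-in and 2076 CPM in wild-type ventricles, and Lpl, at 669.2 CPM in knock-in and 773.9 CPM in wild-type, while Angptl4 was the least abundant at 0.753 CPM in knock-in and 0.399 CPM in wild-type. Of the 31-base words of Fabp3, 50.1% occur in other annotated transcripts, among them the pseudogene Fabp3-ps1, which was assigned 5 to 20 counts per library against 43094 to 78658 for Fabp3. Of those of Etfb, 49.9% occur in other transcripts, mostly of Gm45233 (47.3%), which is absent from the count table. The Rrad gene lies on chromosome 8 at 104628070 to 104631327 of GRCm38, and 4 of the 35 genes (Lpl, Acsl1, Slc27a1 and Mlycd) lie on the same chromosome.

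Among 70 tested other genes of the same pathway, 5 rose, 5 fell and 60 did not pass, with a median log2 fold change of -0.01. The called share was 14.3%, against 9.01% of all genes tested. Those that rose were Pccb (0.28 ± 0.05, edgeR adjusted p = 0.0123) and Mmut (0.21 ± 0.05, 0.0207), which handle the propionyl-CoA left by odd chains, and the thiolase gene Acat1 (0.18 ± 0.04, 0.0286). The others were the acyl-CoA-binding protein gene Dbi (0.21 ± 0.06, 0.0473) and Prkab1, a subunit of the AMP-activated kinase (0.29 ± 0.07, 0.0252). Of these 5, Pccb was called in all 6 fits that left out a library, Mmut and Prkab1 in 1 and Acat1 and Dbi in none, where edgeR adjusted p reached 0.0651 for Mmut and 0.0937 for Acat1 (without knock-in replicate 2), 0.095 for Prkab1 (without knock-in replicate 3) and 0.124 for Dbi (without wild-type replicate 3). Under library size alone none of these 5 passed (edgeR adjusted p from 0.0781 for Pccb to 0.346 for Acat1). With the mitochondrial genome left out of that scale, Dbi (edgeR adjusted p = 0.0971) and Acat1 (0.0687) did not pass either, and DESeq2 did not call Dbi (adjusted p = 0.0562).

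The 5 that fell were Gpihbp1 of the capillary wall and 4 genes of droplets and triglyceride turnover. Gpihbp1, the endothelial protein that anchors lipoprotein lipase in capillaries, was at 22.7, 22.2 and 23.2 CPM in knock-in mice and 30.2, 30.1 and 34.0 CPM in wild-type mice. It fell by 27.8% (-0.47 ± 0.06, edgeR adjusted p = 0.00273) and passed under every alternative run. Of 8 endothelial markers, Tie1 and Esam fell, while 5.01% of all genes tested were called as lower. The 8 markers summed to 443.7 to 512.6 CPM in knock-in and 472.5 to 496.5 CPM in wild-type mice, which overlap. Plin3, a coat protein of small droplets, was at 66.4, 66.0 and 60.3 CPM in knock-in mice and 89.3, 80.9 and 90.0 CPM in wild-type mice, and fell by 25.9% (-0.43 ± 0.06, edgeR adjusted p = 0.00231). Plin4, another droplet coat protein, was at 159.5, 133.8 and 142.5 CPM in knock-in mice and 181, 205.5 and 191.6 CPM in wild-type mice, and fell by 24.6% (-0.41 ± 0.07, edgeR adjusted p = 0.00746). Both passed under every alternative run. Mgll, the monoglyceride lipase gene (-0.31 ± 0.07, edgeR adjusted p = 0.026), and Lpin1, which makes diacylglycerol for triglyceride synthesis (-0.20 ± 0.05, 0.0254), also fell. Mgll did not pass without knock-in replicate 3 (edgeR adjusted p = 0.11), wild-type replicate 1 (0.0622) or wild-type replicate 3 (0.0963), and Lpin1 passed only without knock-in replicate 1 among the 6 such fits (up to 0.127, without knock-in replicate 3). White adipocyte markers were near 0, with summed levels of 0.922 to 1.59 CPM in knock-in and 0.369 to 2.32 CPM in wild-type mice for 8 genes. The 6 brown adipocyte markers summed to 0.545 to 0.868 CPM in knock-in and 0.701 to 1.28 CPM in wild-type mice. Of these, Ucp1 had 0 counts in all 6 libraries. Dio2, the only 1 tested, did not pass (-0.90 ± 0.36, edgeR adjusted p = 0.149), with all knock-in values below all wild-type values.

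**Figure D4:**
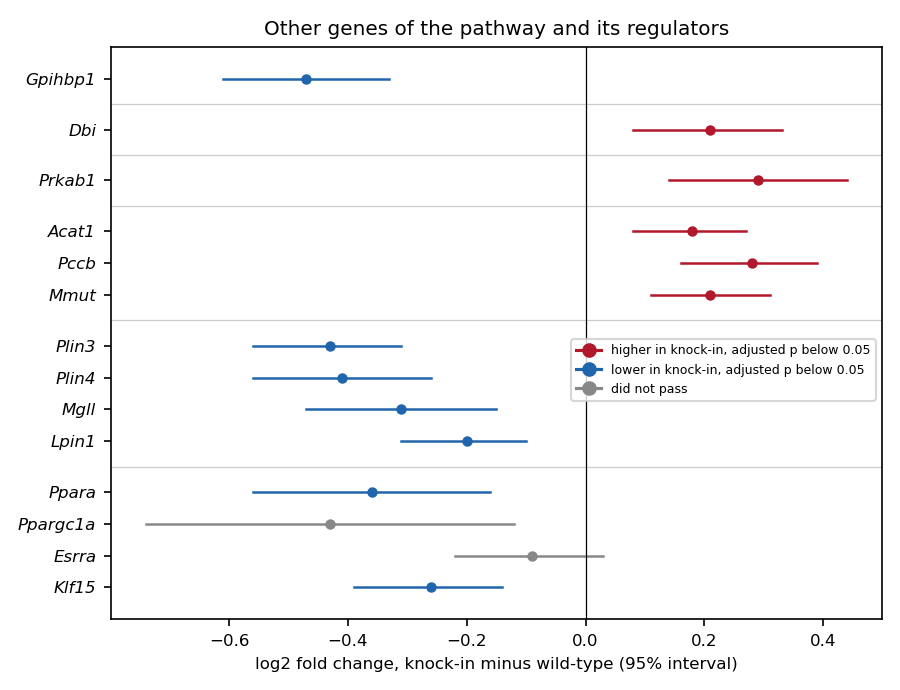
Log2 fold change (x axis, knock-in minus wild-type, with the 95% interval from edgeR) of the 10 called other genes of the pathway, grouped by step, and of 4 regulators at the bottom. The droplet genes Plin3, Plin4, Mgll and Lpin1 lie left of 0, and the mitochondrial genes Acat1, Pccb and Mmut right of 0.

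Of 15 transcriptional regulators and targets, 2 fell and 13 did not pass, so 13.3% were called, against 9.01% of all genes tested. Ppara, encoding PPAR alpha, was at 24.5, 19.3 and 22.8 CPM in knock-in mice and 26.0, 29.1 and 30.3 CPM in wild-type mice. It fell by 22.1% (-0.36 ± 0.09, edgeR adjusted p = 0.036), a direction opposite to that of most of the 35 genes. Klf15, a Kruppel-like factor that promotes lipid use in heart, fell by 16.7% (-0.26 ± 0.06, edgeR adjusted p = 0.0216). Neither passed without knock-in replicate 2 (edgeR adjusted p = 0.0853 for Ppara and 0.0682 for Klf15), knock-in replicate 3 (0.111 and 0.0818), wild-type replicate 2 (0.0939 and 0.0607) or wild-type replicate 3 (0.122 and 0.0752). The coactivator gene Ppargc1a was at 80.9, 79.8 and 79.2 CPM in knock-in mice and 93.3, 89.5 and 140.9 CPM in wild-type mice and did not pass (-0.43 ± 0.14, edgeR adjusted p = 0.0811), with wild-type replicate 3 far above the others. Without wild-type replicate 3 the log2 fold change was -0.19 (edgeR adjusted p = 0.0597), and without wild-type replicate 2 it was -0.55 (0.0431). Ppargc1a was also called with library size alone (edgeR adjusted p = 0.0198) and without a filter on low counts (0.00616), and not with robust dispersions (0.304) or DESeq2 (adjusted p = 0.266). Esrra did not pass (-0.09 ± 0.06, edgeR adjusted p = 0.347). The remaining regulators and targets, none of which passed, lay between -0.49 (Pparg) and 0.11 (Ncor1). Of all 15, 12 lay below 0 and 3 above, with a median of -0.13. Every knock-in mouse was below every wild-type mouse for 6 of them and above for 0, against 15.1% and 14.3% of all genes tested.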

How the data were processed

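Ventricular RNA was column-purified with DNase digestion and made into stranded TruSeq total RNA libraries, per the labels' protocols. Tools listed in the submitters' processing notes are bcl2fastq 2.19 and kallisto 0.44.0, with GRCm38 as the build. The authors deposited whole-number estimated counts per gene symbol for 6 libraries. The sources used here do not say how transcripts were summed to symbols or whether counting used strand. Columns were assigned by the sample number in the labels, and the labels give no batch, date or sex.

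Counts were rounded and analysed with edgeR 4.0.16 in R 4.3.3 (filterByExpr on genotype, TMM, glmQLFit and glmQLFTest, no covariate, two-sided), which tested 13485 symbols holding 99.96% of the counts. Benjamini-Hochberg adjustment covered all tested symbols. Log2 fold changes (knock-in over wild-type) have ± SE, with 95% intervals from the same fit, and the pipeline was tested on simulated data. Alternatives were DESeq2 1.42.0, limma-voom (limma 3.58.1), other scalings, filters and dispersions, and leaving out each library. Levels per kilobase use the median length of GENCODE M21 basic protein-coding transcripts.

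The genes and lists were chosen with earlier results of these data known. All 35 genes and every called gene of the other pathway genes and regulators are named, with Ppargc1a and Esrra; 1 further gene was left out of the regulators and is not reported here. 1 listed symbol, Mut, was matched to Mmut through RefSeq synonyms. Pairs of libraries of a genotype differed by a chi-square of 8.40 or more per degree of freedom, so none was a duplicate.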

Additional observations from a re-analysis of the deposited data

How the results depend on the processing

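No paired analysis was possible because the labels record no pairing of mice between the genotypes. Replicates are numbered here within each genotype in the order of the sample numbers, so equal numbers do not link mice. Over the fits that left out 1 library, the number of called genes ran from 338 to 1378 of all genes (1215 with all mice), 2 to 9 of the 35 fatty acid genes (10), 4 to 9 of the other pathway genes (10) and 0 to 3 of the regulators (2). With library size alone 3 fatty acid genes and 5 regulators were called, and without a filter on low counts 4 regulators. Over all genes, library size alone gave 227 higher and 1177 lower, and with the mitochondrial genome left out of that scale (chosen after seeing the data) 400 higher and 989 lower, against 540 higher and 675 lower with TMM. The cause was not tested. All 10 called fatty acid genes were called again with DESeq2 size factors, upper-quartile factors, the mitochondrial genome left out, either filter, limma-voom, robust dispersions and DESeq2, which called 14 in all.

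Directions turned only for genes that did not pass. With library size alone the log2 fold change was -0.006 for Cd36, -0.083 for Acads, -0.049 for Hadh, -0.071 for Eci1 and -0.061 for Etfb. With the mitochondrial genome also left out it was -0.035 for Acads, -0.003 for Hadh, -0.023 for Eci1 and -0.016 for Etfb. Leaving out 1 library gave -0.027 to 0.04 for Acads, -0.016 to 0.04 for Eci1, -0.023 to 0.051 for Etfb and -0.084 to 0.003 for Pnpla2. With 3 mice per genotype small differences can be missed, and Angptl4, at 33 to 135 counts per library, is the least precise of the 35.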
